A study of Drosophila melanogaster with 24 samples.

Results

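The Notch by Ras interaction asks whether activated Notch and activated Ras, expressed together, changed each transcript by more or less than their separate changes added up to. It was taken here from the 12 arrays of embryos frozen 7 to 8 h after egg laying, out of 24 arrays in the series, which also covered an earlier window. For each gene the interaction was the mean of the combined cross minus the mean of the Notch cross, minus the mean of the Ras cross, plus the mean of the control cross, in log2 units and with n = 3 arrays in each cross. A value of 0 means that both transgenes together had the effect that their log2 changes sum to. Values above 0 mean a higher level than that sum and values below 0 a lower one.

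All embryos were whole Drosophila melanogaster embryos from mothers homozygous for arm-GAL4, which carries the yeast activator GAL4 under the promoter of armadillo, a gene active throughout the embryo. Fathers of the control cross were w1118. Those of the Notch cross carried UAS-NotchICD, the intracellular domain of the Notch receptor, and those of the Ras cross carried UAS-Ras85D(V12), a form of the Ras GTPase locked in its active state. Fathers of the combined cross carried UAS-NotchICD and UAS-Ras85D(V12). GAL4 was therefore shared by all 4 crosses, and the transgenes were on in all cells that the promoter serves rather than where either pathway is normally used. Each cross had its own stock of fathers, so the stock and its transgene cannot be told apart. Each collection pooled about 500 embryos, and per the design text RNA came from 3 independent experiments.

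Notch is a receptor that is cut when it binds a ligand such as Delta on a neighbouring cell, and its intracellular domain then enters the nucleus and switches on genes with the DNA-binding protein Su(H). Ras carries signals of receptor tyrosine kinases (RTKs) such as the EGF and FGF receptors through a kinase cascade to ETS transcription factors. In the fly embryo both pathways act on the same fields of cells, among them the neuroectoderm and the mesoderm, where Notch limits and Ras promotes the choice of muscle founder cells.

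The arrays of the late window were alike in range. Their medians lay between 4.04 and 4.22 log2 units, 5572 to 5677 probe sets per array reached 5, and the root mean square difference between arrays of 1 cross was 0.270 to 0.462 log2 units. A value of 5 is used here as the edge of background. Markers of the main embryonic tissues were present, and the germline gene vas stayed under 5 in all 4 crosses. No probe set carried the names of Notch or Ras85D, so the transgenes were not analysed here. The gap between the 3' and 5' control probe sets of GAPDH, a measure of how intact the RNA was, stood at 3.17 ± 0.68 in control, 1.61 ± 0.15 in Notch, 2.44 ± 0.46 in Ras and 1.98 ± 0.58 in combined arrays (SD, n = 3, log2 units), while that of actin had an interaction of only -0.01. The gap of the eIF-4a control probe sets stood at 1.82, 1.86, 1.67 and 1.76 in the same order, an interaction of 0.04. The part of the GAPDH gap in the results was not tested.

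The interaction was called, at an adjusted p under 0.05 by limma, for 13 of 5736 rows tested (0.227%). Of these, 4 lay above the sum (0.0697%) and 9 below it (0.157%). At an unadjusted p under 0.05 there were 278 rows, 4.85% of all. The median interaction over all rows was 0.01 and the 95% interval of a typical row, before any adjustment for the number of rows, reached 0.42 log2 units to either side. A row that was not called is therefore not shown to lie at the sum. Of the 31 rows whose interaction exceeded 1 log2 unit in size, 10 were called.

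The effect of each transgene was also read with and without the other. Notch alone changed 787 rows against control (13.7%), and Notch on top of Ras changed 648 against Ras (11.3%). These comparisons share no array. They had 448 rows in common, 56.9% of the first and 69.1% of the second, and 447 of these moved in the same direction. Ras alone changed 124 rows (2.16%), 63 higher (1.1%) and 61 lower (1.06%), and Ras on top of Notch changed 105 (1.83%). These had 49 rows in common, 39.5% of the first and 46.7% of the second, all in the same direction. With the replicate number as a block, which is described next, the 4 counts were 1231 (21.5%), 1072 (18.7%), 281 (4.9%) and 211 (3.68%) in the same order. Of the 787 rows called for Notch alone 9 had a called interaction, and of the 124 called for Ras alone 7 had one. In the plot of each transgene's effect with and without the other, the called genes stand off the diagonal in both panels. The vertical distance from the diagonal is the interaction itself, so this follows from how the rows were called.

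**Figure D1:**
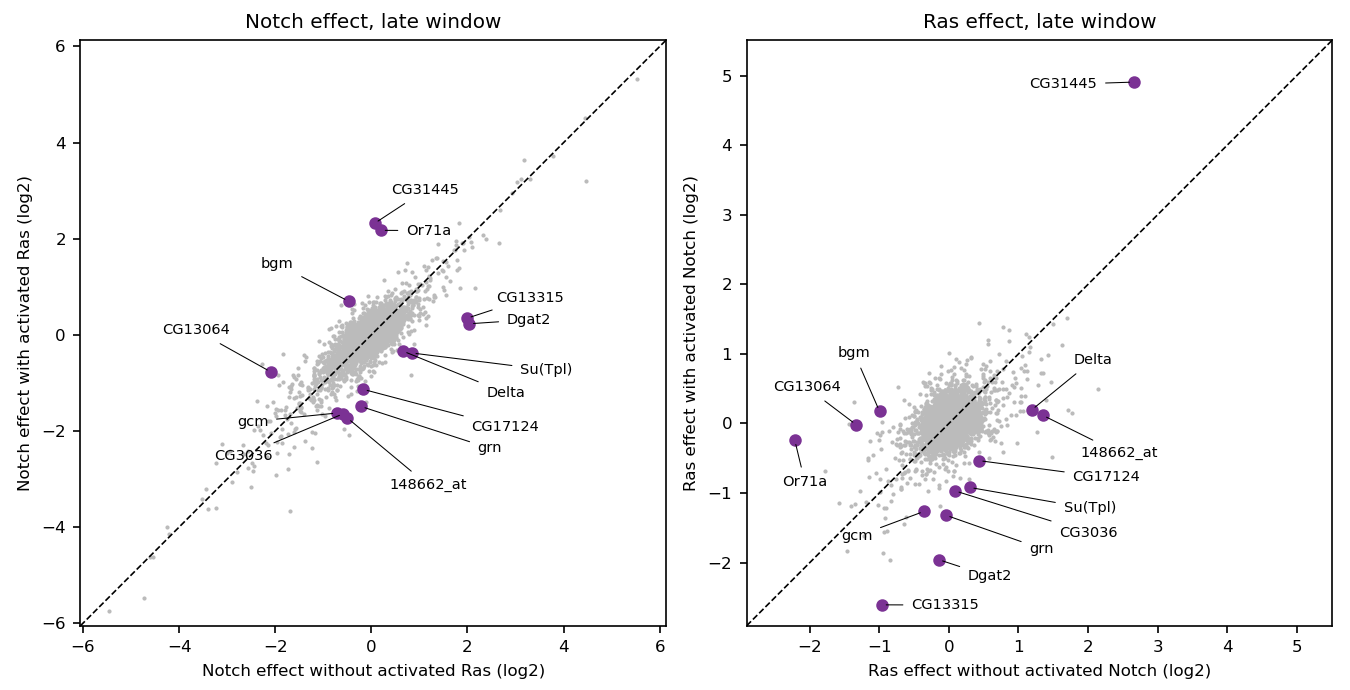
Effect of each transgene in the late window, alone (x axis) and in the presence of the other (y axis), in log2 units, for 5736 rows. The dashed line marks equal effects, and the vertical distance from it is the interaction. Purple points are the 13 rows with a called interaction, of which CG31445, Or71a, Dgat2 and CG13315 lie far from the line. Correlations across rows were 0.863 for Notch and 0.460 for Ras, given as a description since rows of 1 set of arrays are not independent.

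Arrays of the same replicate number deviated together, and the protocol speaks of parallel sets of collections without saying that a number marks a set. With the replicate number as a block, 28 rows were called (0.488%), 15 above the sum (0.262%) and 13 below it (0.227%). All 13 rows called without the block were among them. The 13 are described first, grouped by what the 4 crosses looked like, and the 15 added by the block follow. The same block on the 12 late arrays alone called 10 rows, 7 of the 13 and nau and strat of the 15. The other 13 of the 15 were not called there, a fit chosen after the data were seen.

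**Figure D2:**
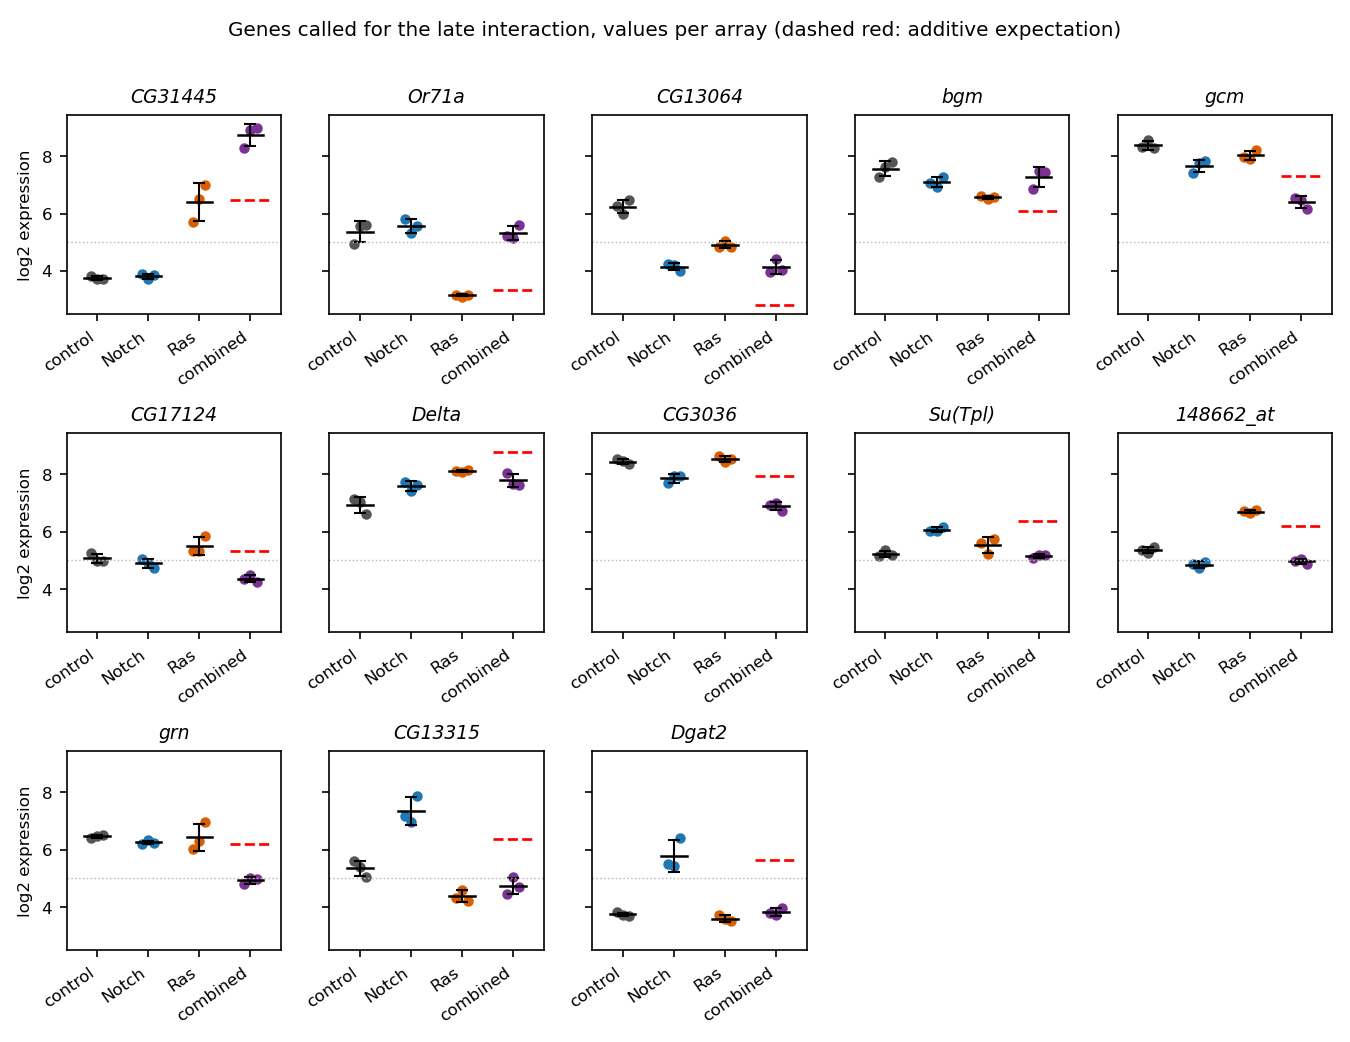
Log2 level on each of the 12 late arrays for the 13 rows with a called interaction, by cross. Points are arrays, horizontal bars are means of 3 and error bars are 1 SD. The dashed line in the combined cross marks the level at which the 2 single changes add up, and the dotted line marks a value of 5.

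Several called genes responded to Notch alone and did not show that response when Ras was active as well. Dgat2, whose product makes triglycerides from diacylglycerol, read 3.82, 3.73 and 3.70 log2 units in control, 5.51, 5.44 and 6.42 in Notch, 3.72, 3.57 and 3.51 in Ras, and 3.80, 3.72 and 3.97 in combined arrays. Only the 3 Notch arrays were above 5. Notch alone raised Dgat2 by 2.04 ± 0.20 log2 units (adjusted p = 1.9e-07), and the combined level was 1.96 ± 0.20 below that of Notch. The interaction was -1.81 ± 0.28 (adjusted p = 0.0033), a combined level 3.51-fold under the additive one. Because the other 3 crosses lay near background, setting all values under 5 to 5 reduced it to -0.79 (adjusted p = 0.49).

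CG13315 followed the same order. It read 5.60, 5.39 and 5.06 in control, 7.16, 6.98 and 7.89 in Notch, 4.33, 4.61 and 4.23 in Ras, and 4.47, 5.03 and 4.70 in combined arrays. The Notch arrays were highest and did not overlap with any other cross, and both crosses with Ras lay below control. Alone, Notch raised it by 1.99 ± 0.22 (adjusted p = 9.5e-07) and with Ras it fell by 0.96 ± 0.22 log2 units (adjusted p = 0.019), whereas the combined cross differed from Ras by 0.35 ± 0.22 (adjusted p = 0.40). The interaction was -1.65 ± 0.31 (adjusted p = 0.021). Its call was lost without control replicate 3, combined replicate 1 or combined replicate 3, with adjusted p up to 0.077.

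Su(Tpl), the fly member of the ELL family of transcription elongation factors, was at 5.15, 5.35 and 5.18 in control and at 6.02, 6.02 and 6.16 in Notch arrays. It was at 5.60, 5.22 and 5.76 in Ras and at 5.07, 5.20 and 5.17 in combined arrays. The Notch arrays again stood above all others, and the combined arrays overlapped with control. Notch alone raised it by 0.84 ± 0.14 (adjusted p = 0.00016), the combined change was -0.08 ± 0.14, and the interaction was -1.22 ± 0.20 (adjusted p = 0.0041). All 4 crosses had means of 5 or more. Su(Tpl) overlaps with Mi-2 and a long noncoding RNA gene, lncRNA:CR32218, in the RefSeq annotation, and the interaction of those probe sets was -0.04 ± 0.20 and -0.59 ± 0.36, neither called (adjusted p = 1.0 for both).

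The mirror case was a response to Ras alone that was missing when Notch was active. Or71a, an odorant receptor gene, read 4.94, 5.55 and 5.60 in control, 5.80, 5.33 and 5.57 in Notch, 3.16, 3.11 and 3.17 in Ras, and 5.22, 5.14 and 5.61 in combined arrays. The 3 Ras arrays lay apart from the other 9, which overlapped. With Ras alone Or71a fell by 2.22 ± 0.16 log2 units (adjusted p = 4.0e-08), and the combined cross differed from control by -0.04 ± 0.16. The interaction was 1.97 ± 0.23 (adjusted p = 0.00012). The high levels themselves were close to 5, and with values under 5 set to 5 the interaction was 0.14 (adjusted p = 1.0). Plp, whose annotated span overlaps with that of Or71a, changed with Ras by 0.16 (adjusted p = 0.82) and had an interaction of -0.14 ± 0.17.

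A probe set without a gene symbol, 148662_at, had the smallest error of the 13. It was at 5.36, 5.24 and 5.45 in control, 4.87, 4.74 and 4.95 in Notch, 6.72, 6.65 and 6.74 in Ras, and 4.99, 5.04 and 4.88 in combined arrays. The Ras arrays stood above all others, and the combined arrays overlapped with Notch. Ras alone raised it by 1.35 ± 0.10 (adjusted p = 4.0e-08), with Notch alone it fell by 0.50 ± 0.10 log2 units (adjusted p = 0.0010), and the interaction was -1.23 ± 0.14 (adjusted p = 0.00012).

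A further group fell in the combined cross below the level of either single cross. The best known is gcm, the transcription factor that starts glial development and also acts in hemocytes. It read 8.30, 8.55 and 8.28 in control, 7.40, 7.75 and 7.82 in Notch, 7.96, 7.90 and 8.21 in Ras, and 6.54, 6.48 and 6.17 in combined arrays. The highest combined array was below the lowest array of every other cross. With Notch alone gcm fell by 0.72 ± 0.13 log2 units (adjusted p = 0.00051), Ras alone gave -0.35 ± 0.13 (adjusted p = 0.26), and with both together it fell by 1.98 ± 0.13 (adjusted p = 4.6e-10). The interaction was -0.91 ± 0.19 (adjusted p = 0.039), or 1.88-fold under the additive level. In RNA from whole embryos, fewer cells of a type and less RNA per cell cannot be told apart. gcm lost its call in 8 of the 12 fits that each left out 1 late array, with adjusted p up to 0.16.

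The GATA-family transcription factor gene grn was called against control in the combined cross and in neither single one. It read 6.42, 6.47 and 6.52 in control, 6.21, 6.32 and 6.23 in Notch, 6.03, 6.30 and 6.95 in Ras, and 4.80, 5.01 and 4.99 in combined arrays. The combined arrays lay more than 1 log2 unit under all others, while the Ras arrays spread across the control range. Notch alone gave -0.22 ± 0.18 (adjusted p = 0.50), Ras alone -0.04 ± 0.18 (adjusted p = 0.98) and both together -1.53 ± 0.18 (adjusted p = 1.5e-06). The interaction was -1.28 ± 0.25 (adjusted p = 0.026). It lost its call in 9 of the 12 fits without 1 array, in all but those without a Ras array, with adjusted p up to 0.091.

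CG17124 had the same form at a low level. It read 5.25, 4.98 and 4.98 in control, 5.06, 4.89 and 4.74 in Notch, 5.34, 5.31 and 5.84 in Ras, and 4.34, 4.49 and 4.26 in combined arrays. The combined arrays were the lowest, and control and Notch arrays overlapped. With both transgenes together it fell by 0.71 ± 0.13 log2 units (adjusted p = 0.00065), neither alone was called, and the interaction was -0.96 ± 0.19 (adjusted p = 0.026). Its levels straddled background, and with values under 5 set to 5 the interaction was -0.43 (adjusted p = 0.49). It also lost its call in 7 of the 12 fits without 1 array, with adjusted p up to 0.11.

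CG3036 was one of 3 rows called under every alternative tried, with 148662_at and Su(Tpl). It stood at 8.53, 8.45 and 8.36 in control, 7.68, 7.94 and 7.95 in Notch, 8.64, 8.44 and 8.52 in Ras, and 6.94, 6.99 and 6.74 in combined arrays. Ras and control arrays overlapped, Notch arrays were lower, and combined arrays were lowest without overlap. The effect of Notch was -0.59 ± 0.12 without Ras (adjusted p = 0.0020) and -1.64 ± 0.12 with it (adjusted p = 3.3e-09). The interaction was -1.06 ± 0.17 (adjusted p = 0.0051). The annotated spans of CG3036 and gcm overlap with those of snsl and CG31709, which were not tested.

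In 3 called genes both transgenes moved the level in the same direction and the combined change fell short of the sum. Delta, which encodes the ligand of Notch, read 7.13, 7.04 and 6.62 in control, 7.74, 7.40 and 7.62 in Notch, 8.11, 8.09 and 8.16 in Ras, and 8.05, 7.68 and 7.62 in combined arrays. All transgenic arrays were above all control arrays, and the combined arrays lay between Notch and Ras and overlapped with Notch. Notch raised Delta by 0.66 ± 0.14 (adjusted p = 0.0018), Ras by 1.19 ± 0.14 (adjusted p = 1.6e-05) and both by 0.85 ± 0.14 (adjusted p = 0.00011). The combined level differed from that of Notch alone by 0.20 ± 0.14 (adjusted p = 0.78) and from that of Ras alone by -0.34 ± 0.14 (adjusted p = 0.13). The interaction was -1.0 ± 0.19 (adjusted p = 0.026), 1.99-fold under the additive level. Its call was lost in 7 of the 12 fits without 1 array, with adjusted p up to 0.11.

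bgm encodes an acyl-CoA synthetase for very-long-chain fatty acids. It read 7.28, 7.63 and 7.78 in control, 7.06, 6.93 and 7.27 in Notch, 6.62, 6.51 and 6.57 in Ras, and 6.86, 7.48 and 7.46 in combined arrays. The Ras arrays were lowest without overlap, and the combined arrays overlapped with control and with Notch. With Ras alone bgm fell by 1.0 ± 0.16 log2 units (adjusted p = 0.00060), and with Notch alone it fell by 0.47 ± 0.16 (adjusted p = 0.048), against a combined change of -0.30 ± 0.16 (adjusted p = 0.25). The interaction was 1.17 ± 0.22 (adjusted p = 0.022). Its call was lost in 6 of the 12 fits without 1 array, with adjusted p up to 0.10.

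CG13064 stood at 6.28, 5.99 and 6.46 in control, 4.24, 4.21 and 4.01 in Notch, 4.84, 5.05 and 4.84 in Ras, and 3.98, 4.41 and 4.03 in combined arrays. It was high in control and near background wherever Notch was active. With Notch alone it fell by 2.09 ± 0.12 log2 units (adjusted p = 2.1e-11), with Ras alone it fell by 1.33 ± 0.12 (adjusted p = 2.7e-07), and adding Ras to Notch gave -0.02 ± 0.12. The interaction was 1.32 ± 0.16 (adjusted p = 0.00018). The sum of the single changes would have put it at 2.82, below every level seen. With values under 5 set to 5 the interaction was 1.23. All other crosses then lie at or near 5, so this value only restates how far control stood above 5.

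CG31445 had the largest interaction, and the only called one in which a rise was enlarged. It read 3.83, 3.71 and 3.71 in control, 3.89, 3.71 and 3.85 in Notch, 5.71, 6.50 and 7.01 in Ras, and 8.28, 8.92 and 8.98 in combined arrays. Control and Notch arrays overlapped near background, Ras arrays were higher, and all combined arrays were above all Ras arrays. Notch alone gave 0.07 ± 0.22 (adjusted p = 0.90), whereas Notch on top of Ras raised the level by 2.32 ± 0.22 (adjusted p = 1.9e-07). Ras alone raised CG31445 by 2.66 ± 0.22 (adjusted p = 2.7e-07), and both together by 4.98 ± 0.22. The interaction was 2.25 ± 0.32 (adjusted p = 0.0010), a combined level 4.77-fold above the additive one.

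Near-background groups were common among the called rows. In 8 of the 13 at least 1 cross had a mean under 5, against 636 of the 5736 rows tested, and those rows were Or71a, Dgat2, CG31445, CG13064, CG13315, grn, CG17124 and 148662_at. The other 5, bgm, Su(Tpl), CG3036, Delta and gcm, were at 5 or more in every cross. On the linear scale, where the group means of 2 to the power of the value were added instead, all 13 kept the sign of the interaction.

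Several of these calls changed with the arrays included in the fit. Without any 1 late array the count ranged from 7 to 17, and it was 7 without control replicate 3 or without combined replicate 3. With the 12 late arrays alone, 4 rows were called, Or71a, Su(Tpl), CG3036 and 148662_at. In that fit CG31445 had an adjusted p of 0.073, CG13064 of 0.057 and Dgat2 of 0.062.

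The last rows inside the threshold were Delta, CG17124 and grn (adjusted p = 0.026 for each) and gcm (0.039). Just outside it lay nau (-1.61 ± 0.36, adjusted p = 0.090), CG8066 (-1.10 ± 0.25, adjusted p = 0.091), car (0.75 ± 0.17, adjusted p = 0.098) and Polr1E (0.56 ± 0.13, adjusted p = 0.098). All 4 are among the 15 rows that the replicate block added, of which 12 have a gene symbol. These 12 were named after their values were seen. The block takes out differences shared by arrays of 1 number, and the interaction itself keeps its value.

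**Figure D3:**
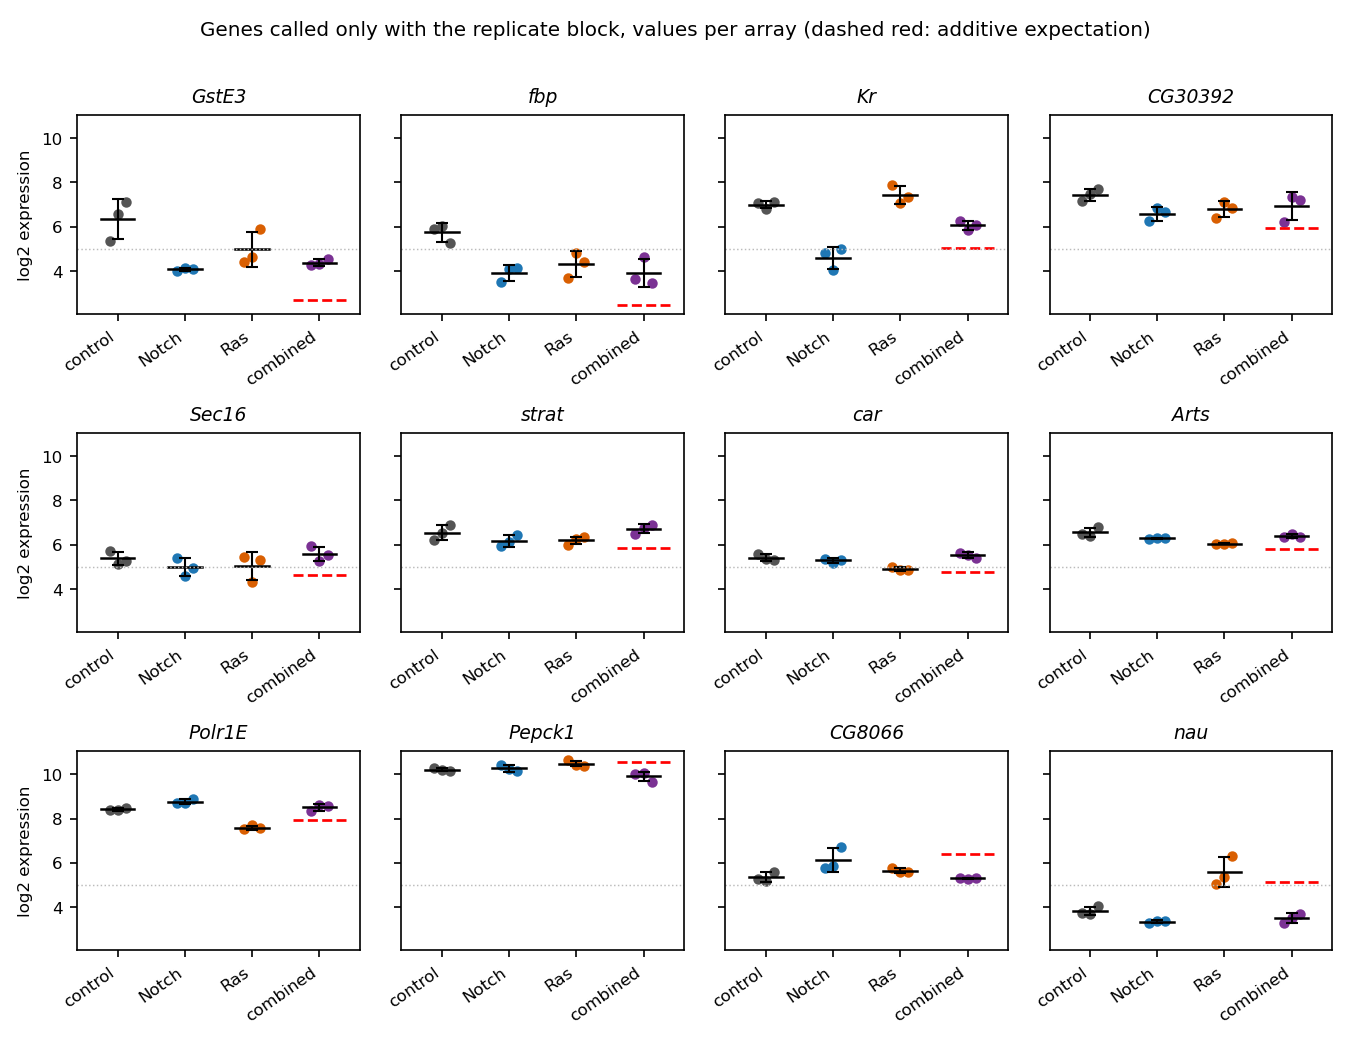
Log2 level on each of the 12 late arrays for the 12 named rows called only with the replicate number as a block, by cross. Points are arrays, horizontal bars are means of 3, error bars are 1 SD, the dashed line in the combined cross marks the additive level and the dotted line a value of 5. nau is above 5 only in the Ras arrays, and Kr is lowest in the Notch arrays.

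nau, the fly MyoD-family gene of muscle founder cells, had the most negative interaction of the added rows. It read 3.75, 3.69 and 4.04 in control, 3.30, 3.40 and 3.39 in Notch, 5.06, 5.38 and 6.33 in Ras, and 3.29, 3.54 and 3.72 in combined arrays. Only the Ras arrays were above 5, and the combined arrays overlapped with Notch and with control. The means of control, Notch and combined arrays were 3.83, 3.36 and 3.52, so background limits the size of the interaction of nau. Ras alone raised nau by 1.77 (adjusted p = 0.00023 without the block), the combined change was -0.31 (adjusted p = 0.52), and with the block the interaction was -1.61 ± 0.29 (adjusted p = 0.013). nau was also called after quantile normalisation without a block, and with the block on the 12 late arrays alone (adjusted p = 0.040).

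Kr, a zinc finger gene of segmentation that is later used in amnioserosa and in a subset of muscles, went the other way. It stood at 7.06, 6.82 and 7.12 in control, 4.80, 4.05 and 4.99 in Notch, 7.87, 7.06 and 7.36 in Ras, and 6.26, 5.86 and 6.07 in combined arrays. The Notch arrays were lowest, and the combined arrays lay between Notch and control without overlap. The effect of Notch on Kr was -2.39 log2 units without Ras and -1.37 with it, and the interaction was 1.01 ± 0.20 with the block (adjusted p = 0.032) against an adjusted p of 0.28 without it and of 0.14 with the block on the 12 late arrays alone.

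fbp, which encodes fructose-1,6-bisphosphatase, read 5.92, 6.04 and 5.27 in control, 3.50, 4.09 and 4.16 in Notch, 3.68, 4.82 and 4.43 in Ras, and 3.64, 4.65 and 3.46 in combined arrays. It was above 5 only in control, the other 3 crosses overlapped near background, and the additive level would have been 2.48. With the block its interaction was 1.43 ± 0.29 (adjusted p = 0.034). The glutathione S-transferase gene GstE3 was also highest on average in control, with means of 6.35 in control, 4.08 in Notch, 4.99 in Ras and 4.38 in combined arrays. Its spread was wide, with a Ras array at 5.90 above the lowest control array at 5.36, and the Notch arrays were lowest without overlap. The additive level of GstE3 would have been 2.72, below all its late arrays, so background limits the reading of its interaction. With the block the interaction of GstE3 was 1.67 ± 0.34 (adjusted p = 0.034). Without it the adjusted p was 0.28 for both fbp and GstE3. Pepck1, which encodes phosphoenolpyruvate carboxykinase of gluconeogenesis, was far above background in all crosses, from 9.66 in 1 combined array to 10.62 in 1 Ras array. The combined arrays were all below the other 9, and with the block its interaction was -0.62 ± 0.13 (adjusted p = 0.034). Without the block the adjusted p of Pepck1 was 0.67.

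CG8066 was highest on average in Notch, as Dgat2 was, and its combined arrays lay within the control range (-1.10 ± 0.22, adjusted p = 0.032). Polr1E, a subunit gene of RNA polymerase I, was lowest in Ras without overlap (0.56 ± 0.11, adjusted p = 0.034), and so was car, which encodes the fly VPS33 of the endosomal pathway (0.75 ± 0.16, adjusted p = 0.046). Arts (0.61 ± 0.13), strat (0.88 ± 0.16), CG30392 (0.99 ± 0.21) and Sec16, a gene of endoplasmic reticulum exit sites (0.93 ± 0.17), had interactions above 0. Their adjusted p lay between 0.013 and 0.047 with the block. Without the block it was 0.15, 0.34, 0.67 and 0.70 in the same order.

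Of 10 Enhancer of split complex genes tested, a cluster of bHLH repressor and Bearded-family genes switched on by Notch, 9 rose with Notch (6.22% of all rows rose) and 10 rose in the combined cross (7.64% of all rows). None had a called interaction with limma, with or without the block, and 1 was at an unadjusted p under 0.05. The median interaction was -0.08 against 0.01 over all rows, from -0.53 for E(spl)mdelta-HLH to 0.61 for E(spl)m6-BFM. The widest 95% interval of the 10 reached 0.80 log2 units to either side, so departures of that size cannot be told from 0 for every member. E(spl)m7-HLH, the member with the highest level, was at 10.49 in control, 12.28 in Notch, 10.72 in Ras and 12.28 in combined arrays, an interaction of -0.23 ± 0.27. All 3 Bearded complex genes tested rose with Notch and in the combined cross, with interactions from -0.30 to -0.17 that were not called. These gene lists and those below were chosen with earlier results of these data known, so their counts are descriptive.

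Among 13 Notch pathway components tested, Delta alone was called for the interaction. The median of the list was -0.14, and 9 of 13 lay below 0 against 2727 of 5736 over all rows. The glycosyltransferase gene fng had the highest value, 0.63 ± 0.36 (adjusted p = 1.0).

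Of 8 RTK-Ras feedback and target genes tested, 5 rose with Ras (1.1% of all rows rose). With Notch 4 rose and 1 fell (6.22% and 7.5% of all rows). In the combined cross 7 rose and 1 fell (7.64% and 7.51%). None had a called interaction, with 2 at an unadjusted p under 0.05. The median was -0.22, and 7 of 8 lay below 0 against 2727 of 5736 over all rows. aop, the ETS repressor also known as Yan, was at 11.50 in control, 12.33 in Notch, 12.28 in Ras and 12.70 in combined arrays. Notch raised it by 0.83 and Ras by 0.78 (adjusted p = 4.4e-06 and 7.6e-05), and the interaction was -0.41 ± 0.14 (adjusted p = 0.68). The 95% interval of aop, not adjusted for the number of rows, reached 0.30 to either side and did not include 0. edl, a gene for an antagonist of ETS transcription factors, had an interaction of -0.38 ± 0.22. The EGF receptor ligand gene spi, of the list of 13 RTK-Ras pathway components, had one of -0.22 ± 0.16. Neither was called.

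Of 9 mesoderm and muscle founder genes tested, 6 rose with Ras alone (1.1% of all rows rose). With Notch alone 3 rose and 3 fell (6.22% and 7.5% of all rows), and in the combined cross 4 rose and 2 fell (7.64% and 7.51%). No interaction was called without the block, 2 were at an unadjusted p under 0.05, and with the block nau and Kr were called in opposite directions. The median was -0.19. twi, the determinant of mesoderm, rose with Notch by 0.76, with Ras by 1.50 and with both by 2.20, an interaction of -0.06 ± 0.18 (adjusted p = 1.0). lmd, a zinc finger gene of myoblasts in the list of fusion and tendon genes, was at 8.95, 9.58, 9.60 and 10.06 in the 4 crosses in the order control, Notch, Ras and combined, and its interaction was -0.17 ± 0.15.

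**Figure D4:**
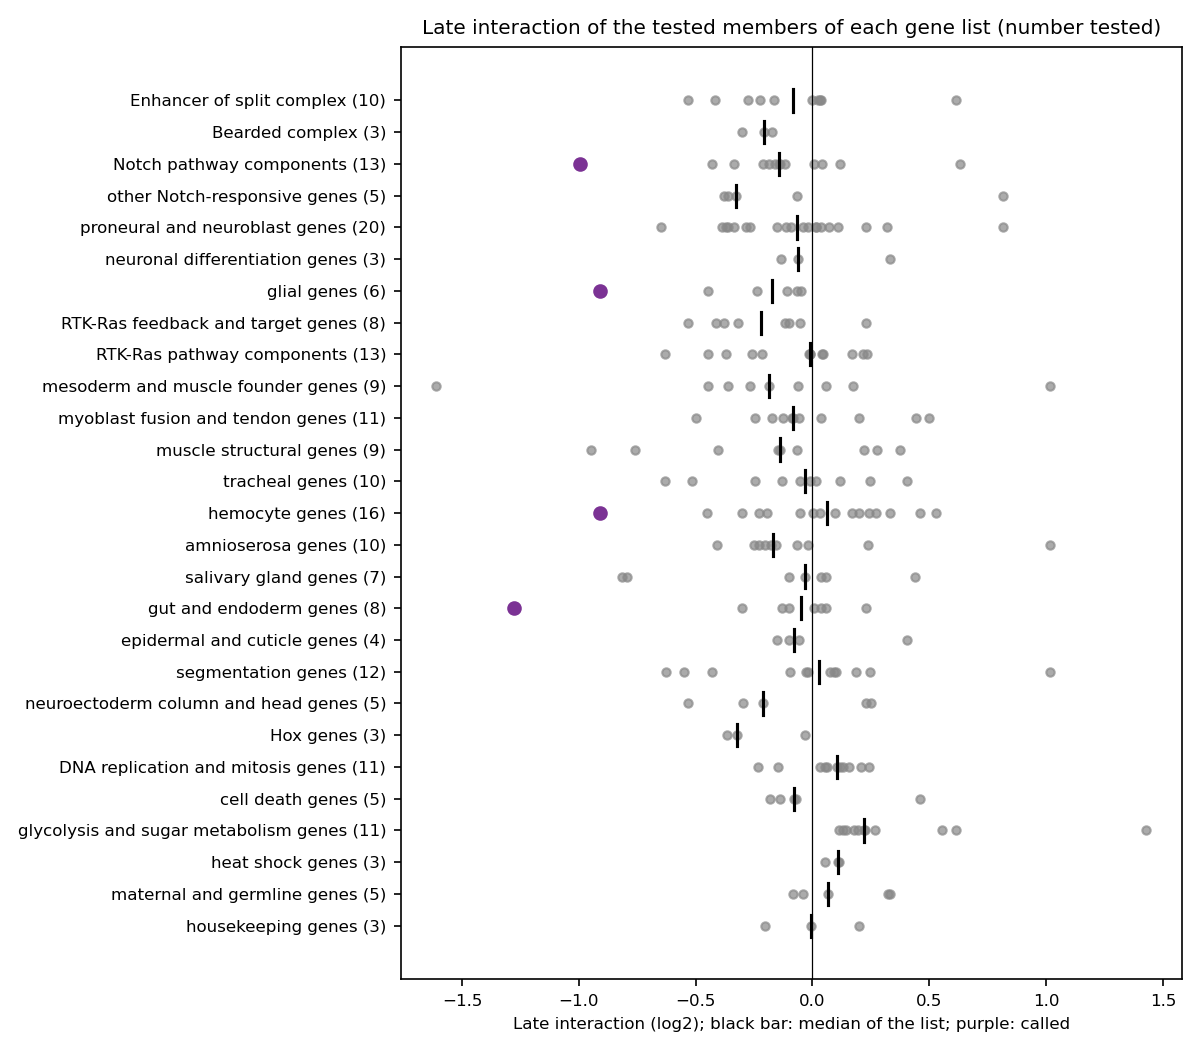
Late interaction in log2 units of every tested member of the gene lists (points), with the median of each list and the number of members tested. Purple points are members called for the interaction, which are Delta, gcm and grn, and the vertical line is at 0.

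Of 20 proneural and neuroblast genes tested, 11 fell and 4 rose with Notch alone (7.5% and 6.22% of all rows), and 11 fell and 3 rose with Notch on top of Ras (6.24% and 5.06%). None had a called interaction, with 2 at an unadjusted p under 0.05, and the median was -0.06, between -0.65 for SoxN and 0.82 for dpn. nerfin-1, a zinc finger gene of new neurons, changed with Notch by -5.47 log2 units without Ras and by -5.75 with it, an interaction of -0.29 ± 0.37. Its means were 3.91 in Notch and 3.54 in combined arrays, both under 5, so background limits the size of both changes and of their difference. The snail-family neuroblast gene wor changed by -3.43 without and by -3.21 with Ras, and its interaction was 0.23 ± 0.21, with the same limit since its means were 4.32 in Notch and 4.61 in combined arrays. elav, a neuronal RNA-binding protein gene, had an interaction of -0.14 ± 0.44.

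Of 6 glial genes tested gcm was called, and all 6 lay below 0 against 2727 of 5736 over all rows. repo, the homeobox gene downstream of gcm in glia, was at 5.94 in control, 4.85 in Notch, 5.91 in Ras and 4.57 in combined arrays, an interaction of -0.24 ± 0.26 (adjusted p = 1.0). gcm also stands in the list of 16 hemocyte genes, whose median was 0.06. grn stands in the list of 8 gut and endoderm genes, whose median was -0.05. Of 7 salivary gland genes none was called, 3 were at an unadjusted p under 0.05, and the lowest was pip, a sulfotransferase gene, at -0.82 ± 0.21 (adjusted p = 0.21).

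All 11 genes of glycolysis and sugar metabolism tested had an interaction above 0, against 3009 of 5736 over all rows. After each array was centred on its median, all 11 were still above 0, against 2594 of 5736 rows. This list, too, was chosen with earlier results known, so the count is a description. Their values ran from 0.11 for Pgk to 1.43 for fbp, with a median of 0.22 against 0.01 over all rows. None was called without the block and 3 were at an unadjusted p under 0.05, and fbp was called with it. Of these 11 genes 6 fell with Notch (7.5% of all rows), 4 with Ras (1.06%) and 7 in the combined cross (7.51%). Gapdh1, the glyceraldehyde-3-phosphate dehydrogenase gene, changed by -0.69 with Notch, -0.50 with Ras and -0.58 with both, an interaction of 0.61 ± 0.21 (adjusted p = 0.65). The gap between the 3' and 5' GAPDH control probe sets, named for the same enzyme, had an interaction of 1.10, and its part in these values was not tested.

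None of the remaining lists held a called interaction, and their genes are given by the member with the highest level. Among lists of patterning genes, the medians were 0.03 for segmentation, -0.21 for neuroectoderm column and head genes and -0.33 for Hox genes. The segment polarity gene en had an interaction of -0.43 ± 0.21, the neuroectoderm gene Dr of 0.25 ± 0.25 and the Hox gene Antp of -0.36 ± 0.23. Kr, called only with the block, stands in the lists of segmentation and of amnioserosa genes. Among tissue lists, the medians were -0.17 for amnioserosa, -0.08 for epidermis and cuticle, -0.03 for trachea, -0.14 for muscle structure, -0.08 for myoblast fusion and tendon, and -0.06 for neuronal differentiation. Ance of the amnioserosa had an interaction of -0.18 ± 0.21, the tracheal gene rib of -0.25 ± 0.23 and the actin gene Act87E of -0.14 ± 0.19. Other Notch-responsive genes had a median of -0.33. The medians of the lists for general functions were 0.10 for DNA replication and mitosis, -0.08 for cell death, 0.11 for heat shock, 0.07 for maternal and germline and -0.01 for housekeeping genes. The mitotic cyclin gene CycB had an interaction of 0.21 ± 0.18, and wgn, which encodes a tumour necrosis factor receptor, of -0.18 ± 0.24. wgn rose with Notch by 0.70 and with Ras by 1.70, and by 2.22 with both.

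The earlier embryos, aged 5 h 45 min to 6 h 45 min, were measured on 12 other arrays and gave 8 called rows (0.139%), or 36 with the replicate block (0.628%). CG31445, Or71a, Dgat2 and 148662_at were called in both windows, each with the same sign. The early interaction was 1.60 for CG31445 (adjusted p = 0.049), 1.29 for Or71a (0.018), -1.68 for Dgat2 (0.011) and -0.80 for 148662_at (0.013). With the block, Su(Tpl) (-0.93, adjusted p = 0.039) and Delta (-0.83, adjusted p = 0.039) were called early as well. All 13 rows called late had the same sign early, against 57.3% of all rows. Early, 10 of the 13 had an unadjusted p under 0.05, against 576 of all 5736 rows. Both windows share 1 spread per gene in the fit, so a late call also favours a small early p. All 13 were smaller early, which the choice of rows by their late value favours.

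**Figure D5:**
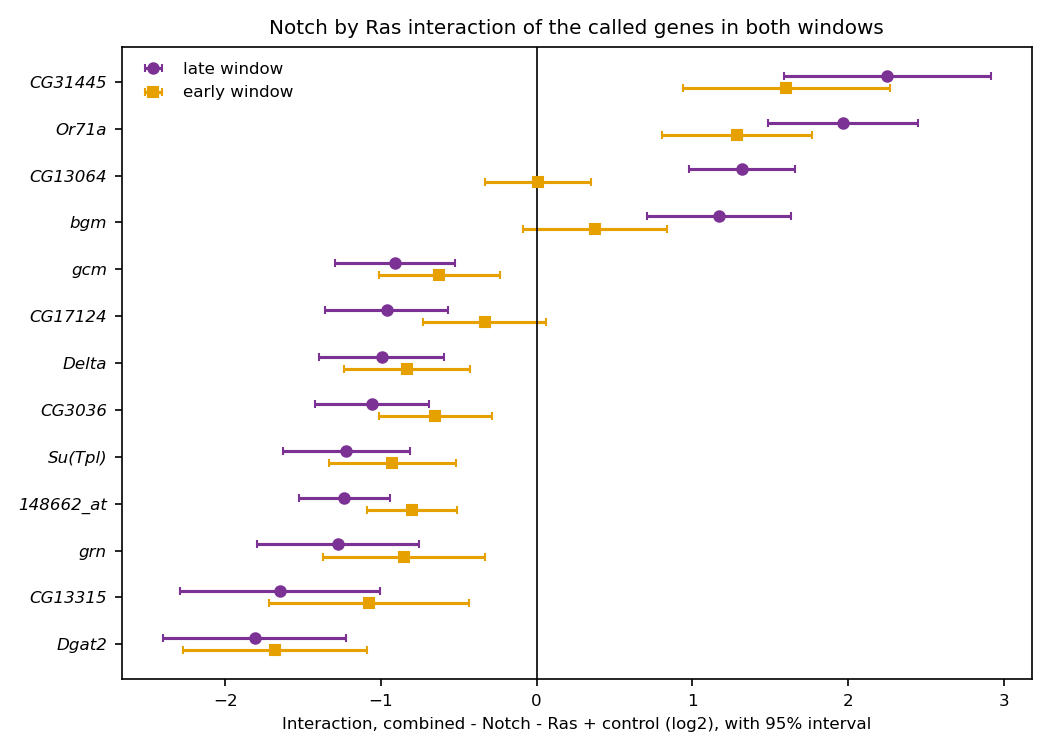
Interaction of each of the 13 rows called in the late window, in log2 units with 95% intervals from the fit, late and early. The early value has the same sign in all 13 and is near 0 for CG13064.

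Of the 13 rows, CG13064 differed most between windows. It read 3.96, 3.99, 3.97 and 4.0 on average in early control, Notch, Ras and combined embryos, below 5 throughout, and its early interaction was 0.01 (adjusted p = 1.0). The difference between windows was 1.31 (adjusted p = 0.083). No row was called for a difference between windows by limma, with 200 at an unadjusted p under 0.05 (3.49%). For gcm the early levels were 8.36, 7.62, 8.12 and 6.74 in the same order, with an interaction of -0.62 (adjusted p = 0.29). Those of Delta were 8.10, 8.54, 8.97 and 8.58, with an interaction of -0.83 (adjusted p = 0.15), and those of grn 6.50, 5.65, 6.67 and 4.97, with an interaction of -0.85 (adjusted p = 0.28). In both windows gcm and grn were lowest in the combined cross and Delta was highest in the Ras cross.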

How the data were processed

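Biotin-labelled cRNA of whole embryos was hybridised to Affymetrix DrosGenome1 arrays. Per the submitters' processing notes, the authors made the deposited log2 values, 1 per probe set and array, with GCRMA, and also used limma (versions not given in the sources used here). By default GCRMA adjusts background from the probe sequences and normalises arrays to each other, so a shift shared by most genes is removed and dim values are drawn together.

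The table held 14010 probe sets, 44 of them controls that were left out. By the platform annotation 12443 had 1 gene symbol, 327 several and 1196 none, and 42 symbols were not in the RefSeq table (Release 6). Those with 5 or more in at least 3 of 24 arrays were kept, with 1 probe set per gene (highest mean), which left 5736 rows (5020, 138 and 578). limma 3.58.1 in R 4.3.3 fitted 8 group means to all 24 arrays (eBayes, 16 residual and 4.09 prior degrees of freedom). P-values were adjusted by Benjamini-Hochberg over all rows and called under 0.05. Errors of changes are standard errors with 1 spread per gene, and n = 3 arrays per cross limits the precision. The fit was tested on simulated data.

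Arrays of the same replicate number deviated from their group means together (correlations 0.172 to 0.673 over 18 late pairs and 0.156 to 0.541 over 18 early pairs), and the labels' protocol names parallel sets of collections without tying a number to a set. On this pattern in the data the number was also fitted as a block within window (12 residual degrees of freedom).

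The members and the 27 gene lists were chosen with earlier results of these data known. Named were up to 12 called genes in each direction, called members of lists, or else the member with the highest mean, and up to 3 genes per class of response. Other genes in the text were chosen after their values were seen. Alternatives were scaling, filter, probe set choice, floor, prior, block, the arrays in the fit, leaving out 1 array and the linear scale.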

Additional observations from a re-analysis of the deposited data

How the results depend on the processing

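No called interaction changed sign under any alternative tried. Of 295 checks of the 13 called rows, 58 lost the call and 237 kept it, but 13 of these 237 compared only the sign, on the linear scale. Called rows that did not reach 6 in at least 3 arrays had no fit under the filter of 6 and were not counted there. The 22 uncalled genes that were named by rule as list members stayed uncalled in all 505 checks, sign-only checks included. The sign changed in 22 of these checks. Genes chosen after their values were seen, such as nau and Kr, which the block called, are not among these 22 genes. Against 13 called late interactions, there were 22 with no filter on low values, 4 with the 12 late arrays alone, 28 with the replicate block and 7 to 17 without 1 array. A block on the 12 late arrays alone, chosen after seeing the data, called 10, of which 7 were among the 13, without bgm, CG13315, grn, Delta, CG17124 and gcm. Against 8 early interactions there were 2 with a filter of 6, 2 with values under 5 set to 5, 36 with the replicate block and 3 to 13 without 1 array. Their split of 4 higher and 4 lower became 2 and 6 after array centring and 1 and 7 after quantile normalisation. Against 0 differences between windows there was 1 after quantile normalisation, 3 with no filter, 1 with values under 5 set to 5, and 0 to 1 without 1 array. The 787 Notch calls became 1231 with the replicate block and 614 to 836 without 1 array. The 124 Ras calls became 75 with the 12 late arrays alone, 281 with the block and 88 to 126 without 1 array. The split of Ras calls, 63 higher and 61 lower, became 57 and 85 after centring and 63 and 94 after quantile normalisation. The 105 calls of combined against Notch became 55 with the 12 late arrays alone, 211 with the block and 59 to 116 without 1 array. The 648 of combined against Ras became 1072 with the block and 484 to 675 without 1 array, and the 869 of combined against control 636 to 906 without 1 array. In the 24-array fit the block changed no late interaction call of the 13 rows or of those 22 genes. The causes of these changes were not tested. Fits with fewer arrays also have fewer degrees of freedom, and the part of this was not tested. Signal near background limits the rows with a cross under 5.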

Other observations

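Of the 8 interactions called in the early window, 4 were not called late without the block. The snoRNA host gene Uhg1 had an early interaction of 2.42 ± 0.29 log2 units (adjusted p = 0.00027, limma) and a late one of 0.53 ± 0.29 (adjusted p = 1.0), and the difference between windows was not called (adjusted p = 0.38). CG8066 was at -1.65 ± 0.25 early (adjusted p = 0.0029) and -1.10 ± 0.25 late (adjusted p = 0.091). CG10492 was at 0.69 ± 0.14 early (adjusted p = 0.049) and 0.09 ± 0.14 late. The fourth is a probe set with several gene symbols, which is not named. Uhg1, CG8066 and CG10492 were chosen after their values were seen.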
